A study of Sus scrofa with 10 samples.

Results

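The mitochondrial chromosome of the pig carries 37 of the 24358 genes listed in the deposited gene table, and its RNA was described here in 10 morula libraries. The 37 genes are all rows whose chromosome is MT: 13 protein genes, 2 ribosomal RNA (rRNA) genes and 22 transfer RNA (tRNA) genes, each with 1 listed isoform of 1 exon. A morula is the cleavage-stage embryo whose cells compact before the blastocyst forms. Pig oocytes, started into development without sperm (parthenogenetic activation), received an injected siRNA, a short RNA that silences its target, and grew to the morula. In 5 libraries (DDB1_KD) the siRNA was aimed at DDB1, which links CUL4 ubiquitin ligases to their substrate receptors, and in 5 (NC, negative control) it was non-specific. All libraries thus come from injected parthenogenetic embryos, which carry maternal chromosomes alone. Separate cultures are not named in the labels for libraries of 1 group, so p-values measure only a spread that may be technical.

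The mitochondrial chromosome is a small circle inherited through the oocyte. It encodes core subunits of the respiratory chain and of ATP synthase, together with the rRNAs and tRNAs that translate them inside the organelle. Both strands are transcribed into long precursors by the polymerase POLRMT. Processing enzymes cut the tRNAs out of the precursor, which releases the mRNAs and rRNAs lying between them, and most of the mRNAs then receive a poly(A) tail. In mammals the embryo divides up the large stock of mitochondria built in the oocyte, and cleavage proceeds with little replication of mitochondrial DNA before the blastocyst.

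Positions are those of the deposited table (genome build susScr11, chromosome MT). The first gene starts at base 1176 and the last ends at 16613. Of the protein genes, 12 lie on the plus strand and 1, ND6, on the minus strand. Both rRNA genes and 14 tRNA genes lie on the plus strand and 8 tRNA genes on the minus strand. The table gives no symbol for rRNA and tRNA genes, so they are called here by the RefSeq locus tag of the gene with the same start and end, a match found for 37 of 37 genes. KEF22_r02 (ENSSSCG00000018061, 1246 to 2205) is the shorter rRNA gene with 960 bases, and KEF22_r01 (ENSSSCG00000018063, 2274 to 3844) is the longer with 1571. The sources used here do not give whether counting used strand. ND5 and ND6 overlap by 17 bases on opposite strands, where reads can be told apart only if strand was used. ATP8 and ATP6 share 43 bases on the same strand and ND4L and ND4 share 7, so reads in these 2 stretches cannot be told apart. Nuclear copies of mitochondrial sequence are known in mammalian genomes and may share reads with any of these genes.

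Library totals ran from 32466912 to 50911295 estimated counts. DDB1 stood at 0.920 to 1.55 FPKM (fragments per transcript length and library size) in DDB1_KD and 2.53 to 4.44 in NC. All 9 embryo markers were above the filter used for testing, a mean of at least 1 FPKM over the 10 libraries. Their summed level was 260 to 724 FPKM in DDB1_KD and 417 to 899 FPKM in NC. Of the 9, 5 had an edgeR log2 fold change of DDB1_KD over NC above 0. The keratin KRT8 ran from 0.0754 to 119 FPKM in DDB1_KD and from 33.9 to 179 in NC, while DPPA2, a factor of early embryonic cells, ran from 84.7 to 175 and from 84.8 to 136. None of 11 listed markers of cumulus and granulosa cells, which surround the oocyte, passed that filter. Their summed level was 0.409 to 1.37 FPKM in DDB1_KD and 0.517 to 2.07 FPKM in NC, and AMH, CYP11A1 and FSHR had no count in any library. Of 7 fibroblast markers 1 passed the filter, with a summed level of 0.835 to 3.57 FPKM in DDB1_KD and 1.63 to 2.36 in NC. Of 5 listed blood markers 2 passed it, with 1.10 to 7.04 FPKM in DDB1_KD and 1.56 to 10.7 in NC.

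The first comparison asked how much of each library came from the mitochondrial chromosome. In DDB1_KD replicates 1 to 5 the share of counts was 12.2%, 16.8%, 16.4%, 12.2% and 24.4%. In NC replicates 1 to 5 it was 8.58%, 13.1%, 11.7%, 18.4% and 14.1%. The groups overlapped, with the highest value in DDB1_KD replicate 5 and the lowest in NC replicate 1. The mean was 16.4% ± 4.97 (SD, n = 5) in DDB1_KD and 13.2% ± 3.58 (SD, n = 5) in NC. The difference of 3.25 percentage points was smaller than either SD, and it was 1.26 without DDB1_KD replicate 5. Leaving out NC replicate 1 gave 2.11 points, and leaving out NC replicate 4 gave 4.56. A sum over these genes was not tested, because the genes were chosen with earlier results of these data known. In a bulk library, more RNA per cell and more cells rich in that RNA cannot be told apart.

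**Figure D1:**
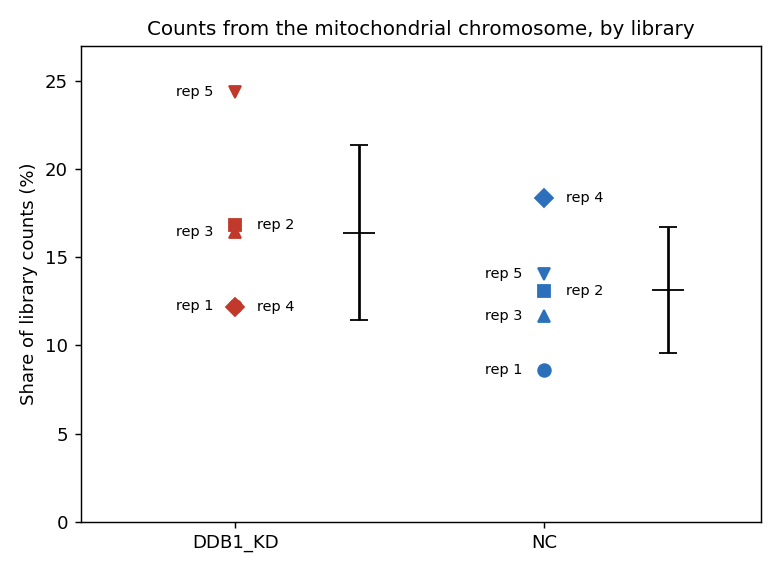
Share of each library's estimated counts that came from the 37 genes of the mitochondrial chromosome (y axis, percent) in DDB1_KD and NC. Each symbol is 1 library labelled with its replicate number, the bar is the mean ± SD of 5 libraries, and the groups overlap, with DDB1_KD replicate 5 (24.4%) above every NC library and NC replicates 1 (8.58%) and 3 (11.7%) below every DDB1_KD library.

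Maternal transcripts also differed between these libraries, and their level is given here beside the share. The mean log2(CPM + 1) of 18 maternal oocyte transcripts, with CPM (counts scaled to library size) taken over nuclear genes, was 2.07, 5.51, 4.83, 3.54 and 4.79 in DDB1_KD replicates 1 to 5. In NC replicates 1 to 5 it was 3.59, 3.76, 4.66, 2.94 and 2.56. DDB1_KD replicate 2 was highest for the maternal transcripts and DDB1_KD replicate 5 for the mitochondrial share. Across the 10 libraries Pearson's r between share and maternal level was 0.368 (two-sided permutation p = 0.3) and Spearman's rho was 0.297 (p = 0.407). The value of r was 0.249 without the 2 libraries farthest from the median share, DDB1_KD replicate 5 and NC replicate 1. With the maternal level as mean log2(FPKM + 1), r was 0.313 (permutation p = 0.385) and rho 0.2 (p = 0.585). Adjusted over these 4 relations (Benjamini-Hochberg), the permutation p-values were 0.543 to 0.585.

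Within the mitochondrial counts, protein genes took 94.9% to 97.8% in every library. The 2 rRNA genes took 2.63%, 2.25%, 1.84%, 4.58% and 3.19% in DDB1_KD replicates 1 to 5 and 3.91%, 2.90%, 2.36%, 3.18% and 4.87% in NC replicates 1 to 5. The groups overlapped (2.90% ± 1.06 and 3.45% ± 0.974, SD, n = 5 each). The 22 tRNA genes together took 0.151%, 0.508%, 0.327%, 0.193% and 0.765% in DDB1_KD and 0.210%, 0.289%, 0.271%, 0.340% and 0.221% in NC, in the same order. The tRNA share thus varied more between DDB1_KD libraries (0.389% ± 0.252) than between NC libraries (0.266% ± 0.0531, SD, n = 5 each). Genes on the minus strand, ND6 and 8 tRNA genes, held 1.39% to 2.18% of mitochondrial counts in all 10 libraries.

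Per length, the 13 protein genes were among the most abundant RNAs in these morula libraries. By mean FPKM over the 10 libraries they held ranks 1 to 23 of the 24358 genes listed, with means from 3614 FPKM for ND5 to 33638 for ATP6. ATP6 was higher than the next gene, ND4L, in 10 of 10 libraries. Some neighbours in the order were not separated: ND4L exceeded COX3 in 4 of 10 libraries, COX2 exceeded COX1 in 5, COX1 exceeded ND4 in 6 and ATP8 exceeded ND2 in 4. Others kept 1 order in 10 of 10 libraries, namely ND4 above ND1, CYTB above ND3, ND6 above ND5 and KEF22_r02 above KEF22_r01. ND6 and ND5 were all but equal in NC replicate 5 (5287.74 and 5287.63 FPKM).

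**Figure D2:**
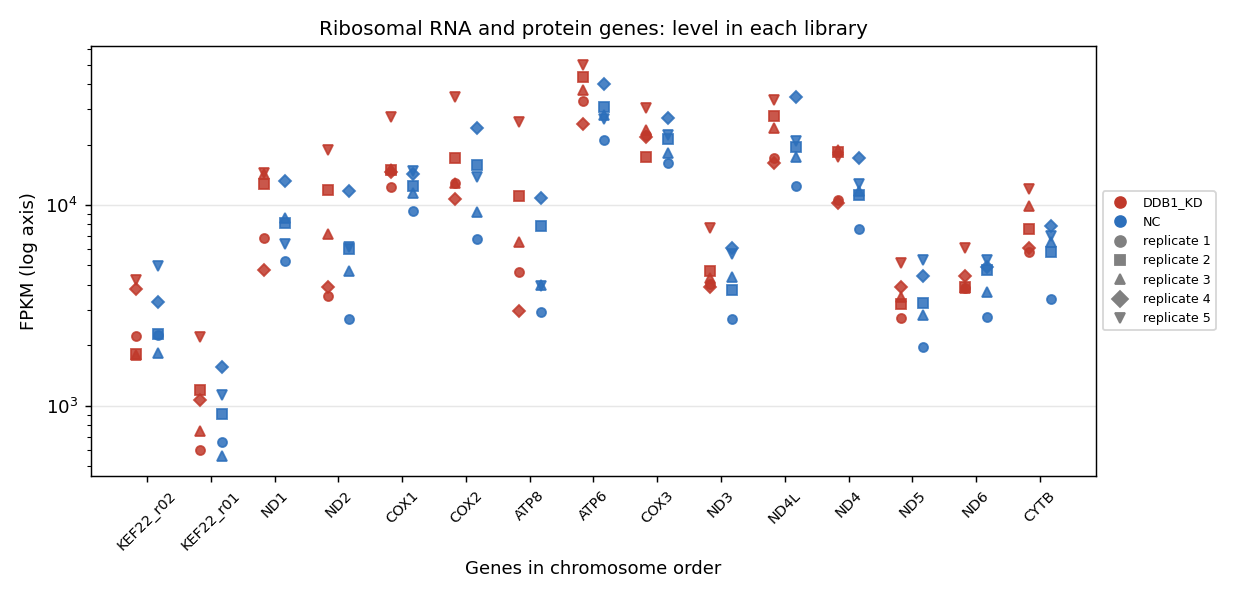
Level of the 2 rRNA and 13 protein genes in FPKM (y axis, log scale) in chromosome order, with 1 symbol per library, DDB1_KD in red and NC in blue. ATP6 is highest, the longer rRNA gene KEF22_r01 is lowest, and the groups overlap for each of the 15 genes.

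Complex I, NADH dehydrogenase, takes electrons from NADH, and 7 of its core subunits are encoded here. ND2 (5087 to 6128) varied most among them. Its level was 3503, 11856, 7134, 3907 and 18738 FPKM in DDB1_KD replicates 1 to 5 and 2715, 6004, 4698, 11686 and 6159 FPKM in NC replicates 1 to 5. DDB1_KD replicates 5 and 2 and NC replicate 4 were the highest libraries, and the groups overlapped. The fitted log2 fold change of DDB1_KD over NC was 0.55 (SE 0.50), and 0.06 without DDB1_KD replicate 5.

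ND1, at the start of the protein genes, had 10606 ± 4501 FPKM in DDB1_KD against 8302 ± 3031 FPKM in NC (SD over 5 libraries), a log2 fold change of 0.37 (SE 0.36). ND4 had 15081 ± 4315 and 12051 ± 3400 FPKM (0.34, SE 0.27), and ND4L, which is read from the same mRNA as ND4, had 23736 ± 7304 and 20882 ± 8230 (0.20, SE 0.31). Without DDB1_KD replicate 5 the value of ND1 was 0.22 and that of ND4L 0.02, and without NC replicate 4 they were 0.64 and 0.49. The FPKM ratio of ND4L to ND4 kept to a narrow range, 1.29 to 2.02 over the 10 libraries. The 3 other subunits had smaller differences: ND3 0.14 (SE 0.27), ND5 0.08 (SE 0.27) and ND6 0.06 (SE 0.22). ND6 is the subunit encoded on the minus strand. Its level was 3867, 3908, 3836, 4400 and 6072 FPKM in DDB1_KD replicates 1 to 5 and 2766, 4743, 3665, 4883 and 5288 FPKM in NC replicates 1 to 5. The highest ND6 value was in DDB1_KD replicate 5 and the lowest in NC replicate 1, as for the mitochondrial share.

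Complex III passes electrons on to cytochrome c, and CYTB, cytochrome b, is its subunit encoded here. The CYTB level was 5808, 7587, 9857, 6132 and 12055 FPKM in DDB1_KD replicates 1 to 5 and 3416, 5809, 6563, 7878 and 7008 in NC replicates 1 to 5. DDB1_KD replicates 5 and 3 were above all NC libraries and the other 3 lay within the NC range. The log2 fold change was 0.46 (SE 0.28), and 0.26 without DDB1_KD replicate 5.

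Complex IV, cytochrome c oxidase, reduces oxygen and has its catalytic core in COX1, COX2 and COX3. COX1 (ENSSSCG00000018075, 6511 to 8055), the subunit that holds the oxygen-reducing site, had 12297, 14967, 15058, 14657 and 27539 FPKM in DDB1_KD replicates 1 to 5. In NC replicates 1 to 5 it had 9335, 12466, 11490, 14285 and 14690 FPKM. DDB1_KD replicate 5 stood far above the rest, replicates 2 and 3 lay just above the highest NC library, and replicates 1 and 4 lay within the NC range. COX1 had the smallest p of the 13 protein genes (0.0875, edgeR) at a log2 fold change of 0.47 (SE 0.25), and its adjusted p was 0.977. Without DDB1_KD replicate 5 the COX1 value was 0.18. COX2, which takes electrons from cytochrome c, had 17566 ± 9652 FPKM in DDB1_KD against 13951 ± 6760 FPKM in NC (0.35, SE 0.41, and -0.08 without DDB1_KD replicate 5). COX3 had 23148 ± 4785 and 21006 ± 4247 FPKM (SD, n = 5 each; 0.16, SE 0.22).

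ATP synthase makes ATP from the proton gradient, and ATP6 and ATP8 encode membrane subunits of it from 1 shared mRNA. ATP6 (ENSSSCG00000018081, 9120 to 9800), part of the proton channel, had 32942, 43676, 37545, 25466 and 49570 FPKM in DDB1_KD replicates 1 to 5 and 21187, 30780, 28153, 40213 and 26842 in NC replicates 1 to 5. ATP8 (8959 to 9162, 204 bases) had 4619, 11063, 6562, 2959 and 26009 FPKM in DDB1_KD and 2924, 7855, 3992, 10843 and 3965 in NC, in the same order. The ratio of ATP6 to ATP8 was not stable, at 8.61 in DDB1_KD replicate 4 and 1.91 in DDB1_KD replicate 5. ATP8 had the largest log2 fold change of the protein genes, 0.82 (SE 0.58), which was 0.07 without DDB1_KD replicate 5 and 1.19 without NC replicate 4. Counts equalled FPKM times the full listed length times 1 constant per library, for short genes as well as long ones. The sources used here do not say how fragments longer than a gene were counted, and levels of the shortest genes depend on that.

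The proportions of the complexes spread less than the total: the highest library was 1.28 times the lowest for complex I and 1.48 times for complex III, against 2.84 times for the mitochondrial share. Complex I genes held 38.0% ± 4.31 of protein gene counts in DDB1_KD against 38.8% ± 2.47 in NC (SD over 5 libraries). Complex IV genes held 37.3% ± 5.05 and 37.7% ± 2.33, ATP synthase genes 18.4% ± 1.94 and 17.7% ± 1.64, and CYTB 6.23% ± 0.699 and 5.78% ± 0.788. DDB1_KD replicate 2 had the most complex I counts (43.1%) and the fewest complex IV counts (30.9%) of the 10 libraries, while DDB1_KD replicate 4 had the most complex IV counts (42.7%). By the ratio of the highest to the lowest share, ATP8 varied most among single genes, from 0.547% in DDB1_KD replicate 4 to 2.35% in DDB1_KD replicate 5, followed by ND2, from 3.21% in DDB1_KD replicate 1 to 8.66% in DDB1_KD replicate 5. ATP6 stayed between 14.4% and 19.7%. No gene's share separated the groups.

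**Figure D3:**
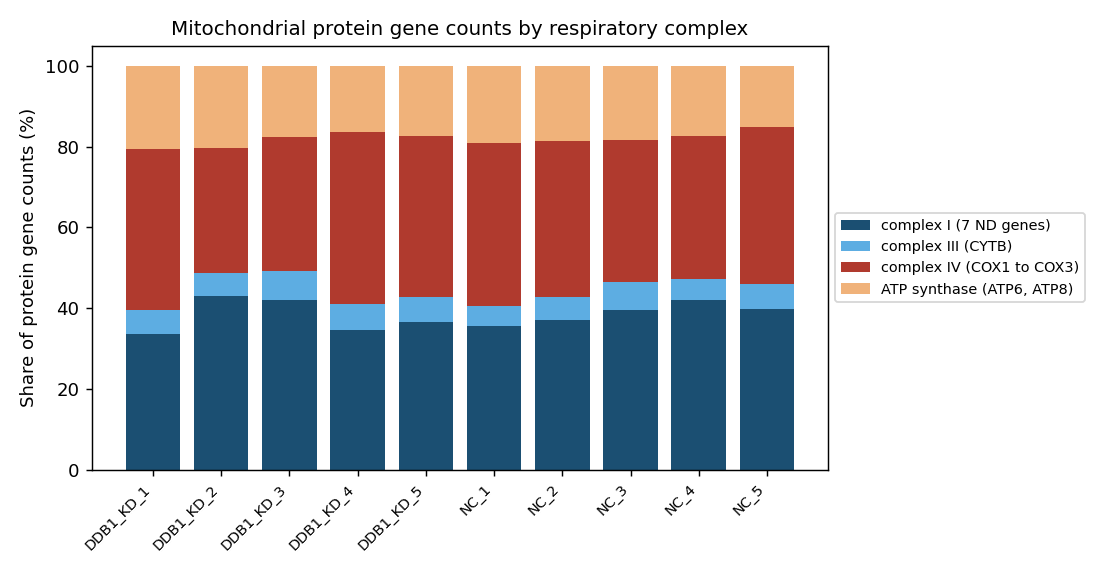
Counts of the 13 mitochondrial protein genes divided by respiratory complex, as a percentage of their sum (y axis) in each of the 10 libraries. Complex I ranges from 33.6% to 43.1% and complex IV from 30.9% to 42.7%. The NC libraries span 35.6% to 41.9% and 35.2% to 40.4%, and the ends of both ranges are DDB1_KD libraries.

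The rRNA genes encode the RNA of the mitochondrial ribosome. The shorter, KEF22_r02, had 2220, 1812, 1784, 3790 and 4216 FPKM in DDB1_KD replicates 1 to 5 and 2260, 2286, 1832, 3286 and 4962 FPKM in NC replicates 1 to 5. Its log2 fold change was -0.06 (SE 0.32), the only one below 0 among the genes tested here, and leaving out 1 library took it as low as -0.30 (DDB1_KD replicate 5) and as high as 0.17 (NC replicate 5). The longer, KEF22_r01, had 599, 1197, 743, 1062 and 2193 FPKM in DDB1_KD and 660, 911, 558, 1556 and 1125 in NC, in the same order (log2 fold change 0.28, SE 0.38, and -0.13 without DDB1_KD replicate 5). Per length the shorter gene exceeded the longer in every library, by a ratio of 1.51 (DDB1_KD replicate 2) to 4.41 (NC replicate 5). Both rRNA genes were lower per length, by their mean over the 10 libraries, than any of the 13 protein genes. These are levels in the libraries, and how evenly rRNA and mRNA were captured in them was not tested.

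The tRNA genes carry amino acids to the mitochondrial ribosome and mark most borders between the larger genes. Their 59 to 75 bases are short, so the values are counts assigned to the gene interval and do not separate mature tRNA from uncut precursor. Of the 22 genes, 21 had a mean of at least 1 FPKM, and their means ran from 34.1 to 2152 FPKM. The 5 highest were KEF22_t14 (2152 FPKM), KEF22_t20 (1104), KEF22_t06 (987), KEF22_t05 (596) and KEF22_t03 (346). KEF22_t22 (16550 to 16613, minus strand), the last gene before the non-coding control region, had at most 2 counts in any library and was not tested.

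KEF22_t20 (15267 to 15335), beside ND6 on the minus strand, was the steadiest tRNA gene. It had 1139, 843, 920, 1318 and 1313 FPKM in DDB1_KD replicates 1 to 5 and 759, 1243, 886, 1173 and 1441 in NC replicates 1 to 5, a highest value 1.90 times the lowest. KEF22_t14 (8891 to 8957), between COX2 and ATP8, varied far more, with 261, 2912, 811, 397 and 11441 FPKM in DDB1_KD and 394, 1403, 399, 2951 and 546 in NC, in the same order. DDB1_KD replicate 5 was 43.8 times the lowest library, DDB1_KD replicate 1. KEF22_t06 (5017 to 5086), just before ND2, had 230 to 2822 FPKM in DDB1_KD and 272 to 1053 in NC, and KEF22_t05, next to it on the minus strand, had 118 to 1830 and 135 to 609. KEF22_t03, before ND1, had 82.2 to 957 FPKM in DDB1_KD and 126 to 312 in NC.

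A run of 5 tRNA genes between ND2 and COX1, KEF22_t07 to KEF22_t11 (6129 to 6509, the first on the plus strand and the other 4 on the minus strand), was far lower in some libraries than in others. In the 6 low libraries KEF22_t07 and KEF22_t08 were near 0, whereas KEF22_t09 and KEF22_t10 were still detected. These genes were singled out after their values were seen. KEF22_t07 (ENSSSCG00000018070) had counts of 1, 524, 2, 0 and 1081 in DDB1_KD replicates 1 to 5 and 2, 102, 1, 205 and 6 in NC replicates 1 to 5. The 0 in DDB1_KD replicate 4 allows up to 3 counts. DDB1_KD replicates 2 and 5 and NC replicates 2 and 4 were thus high and the other 6 libraries were low, with high and low libraries in both groups.

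KEF22_t10 (6379 to 6444) showed the same libraries on top, with 7.46, 370, 21.2, 12.6 and 656 FPKM in DDB1_KD replicates 1 to 5 and 5.45, 206, 12.4, 207 and 15.1 FPKM in NC replicates 1 to 5. Against the mean FPKM of the flanking ND2 and COX1, KEF22_t10 stood at 0.0944%, 2.76%, 0.191%, 0.136% and 2.84% in DDB1_KD and 0.0904%, 2.23%, 0.153%, 1.59% and 0.145% in NC, in the same order. Relative to its neighbours it therefore still differed 31.4-fold between the highest and the lowest library. The same 4 libraries held the 4 highest FPKM values for 11 of the 37 genes: KEF22_t02, which lies between the rRNA genes, KEF22_t07 to KEF22_t11, COX2, KEF22_t14 and ATP8, which follow each other on the chromosome, KEF22_t16 and KEF22_t21. Library totals in DDB1_KD replicates 1 to 5 were 43272279, 42097669, 42100142, 32466912 and 47737219 estimated counts, and in NC replicates 1 to 5 34975071, 43191180, 33737657, 50911295 and 47638753. The part of depth in this pattern was not tested.

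**Figure D4:**
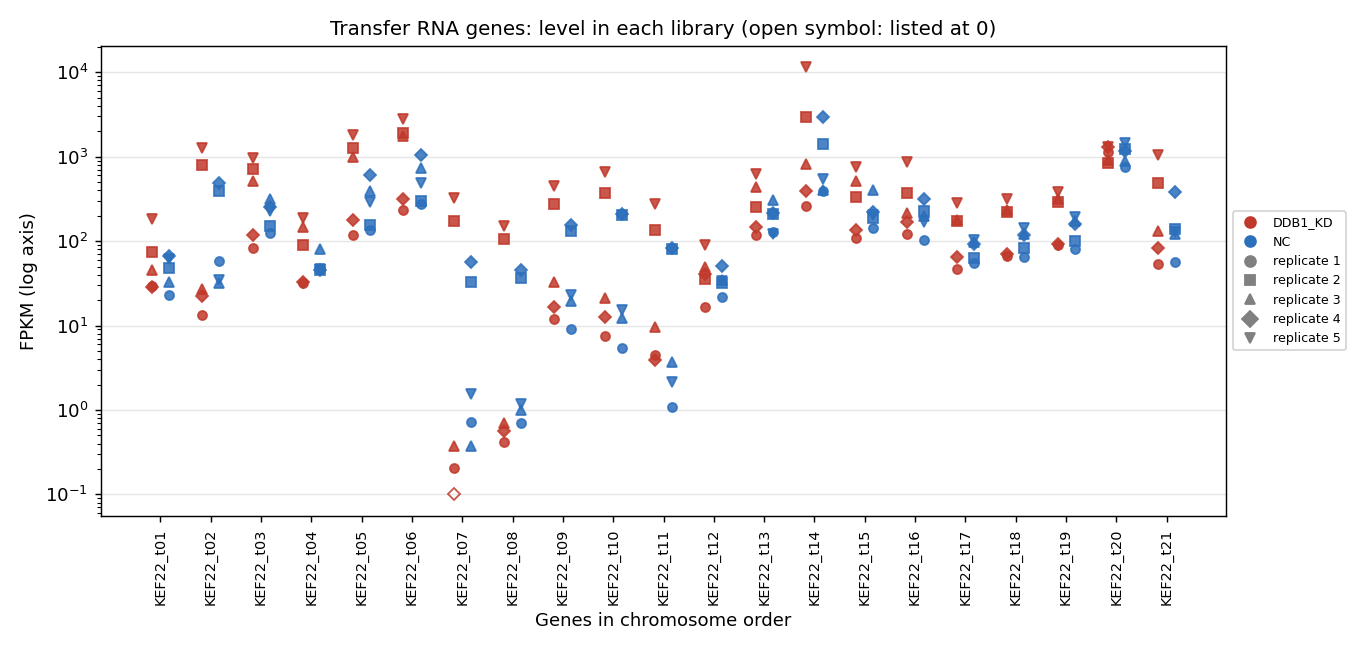
Level of 21 tRNA genes in FPKM (y axis, log scale) in chromosome order, with 1 symbol per library, DDB1_KD in red and NC in blue, and an open symbol at the bottom where the gene is listed at 0. KEF22_t20 lies between 759 and 1441 FPKM in all libraries, whereas KEF22_t07 to KEF22_t11 fall into a high set (DDB1_KD replicates 2 and 5, NC replicates 2 and 4) and a low set.

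The comparison of DDB1_KD with NC was made by edgeR's quasi-likelihood test over the 8476 genes that passed the filter, of which 36 lie on the mitochondrial chromosome. None of the 36 had an adjusted p under 0.05 (Benjamini-Hochberg, 0.977 to 0.992) and none had an unadjusted p under 0.05. Over all 8476 genes 0% passed at the adjusted threshold, and 2.89% (245 genes) had an unadjusted p under 0.05, 1.76% with a value above 0. The siRNA target DDB1, at 0.920 to 1.55 FPKM in DDB1_KD and 2.53 to 4.44 in NC, was thus among the genes that did not pass in edgeR. DESeq2 passed 2 genes (0.0236%), neither of them mitochondrial, and gave an unadjusted p under 0.05 to 3 of the 36 (KEF22_t03, KEF22_t05 and KEF22_t06) against 4.16% of all genes. With limma on log2(FPKM + 1) 0% passed, and 0 of the 36 had an unadjusted p under 0.05 against 3.22% of all genes. In edgeR the smallest unadjusted p of the 36, 0.0525, belonged to KEF22_t05 (log2 fold change 1.50, SE 0.70). The groups of 5 FPKM values overlapped for all 37 mitochondrial genes, and did not overlap for 0.413% of the 8476 genes.

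The fitted differences of these genes nevertheless had mostly 1 sign. Of 36 tested, 35 had a value above 0, where 50% of all genes tested did. The median log2 fold change of the 36 was 0.73 against 0.00 over all genes. All 18 tested maternal oocyte transcripts, of 22 listed, had a value above 0 as well. That list was known from earlier results of these data to differ between libraries, so its count was not tested. Its mean level overlapped between the groups and was lowest in DDB1_KD replicate 1 (2.07). The 13 protein genes ran from 0.06 to 0.82 with a median of 0.35, and the 21 tRNA genes from 0.02 to 2.39 with a median of 1.07. The genes share precursors and libraries, so these signs are not independent. DDB1_KD replicate 5 was the highest library for 31 of the 37 genes. Without it 27 of 36 values were above 0 and the median was 0.13. Of the protein genes 9 of 13 then had a value above 0 (median 0.06), as had 0 of 2 rRNA genes and 18 of 21 tRNA genes (median 0.26).

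Without DDB1_KD replicate 5 the highest fitted value was that of KEF22_t07 (1.14), which rests on few counts in most libraries. Next came 3 tRNA genes beside ND1 and ND2, KEF22_t05 at 1.01, KEF22_t06 at 0.90 and KEF22_t03 at 0.75. For these 3 genes DDB1_KD replicates 2, 3 and 5 were above every NC library and DDB1_KD replicate 1 was below every one. DDB1_KD replicate 4 was below all NC libraries for KEF22_t03 and just above the 2 lowest for the other two. The maternal transcripts were at 4.79 to 5.51 in DDB1_KD replicates 2, 3 and 5 and at 2.07 and 3.54 in replicates 1 and 4. In NC, KEF22_t05 and KEF22_t06 were highest in replicate 4 (609 and 1053 FPKM), where the maternal level was 2.94. KEF22_t03 was highest in NC replicate 3 (312 FPKM), where that level was 4.66, the highest of NC. The part of the maternal transcripts in these values was not tested. The spread between libraries, as the coefficient of variation of FPKM, was greater in DDB1_KD than in NC for 31 of 37 genes (83.8%), against 70.4% of all genes tested. Without DDB1_KD replicate 5 it was greater for 23 of 37 (62.2%), against 66.2% of all genes tested. Those 23 were 3 of the 13 protein genes and 20 of the 22 tRNA genes.

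**Figure D5:**
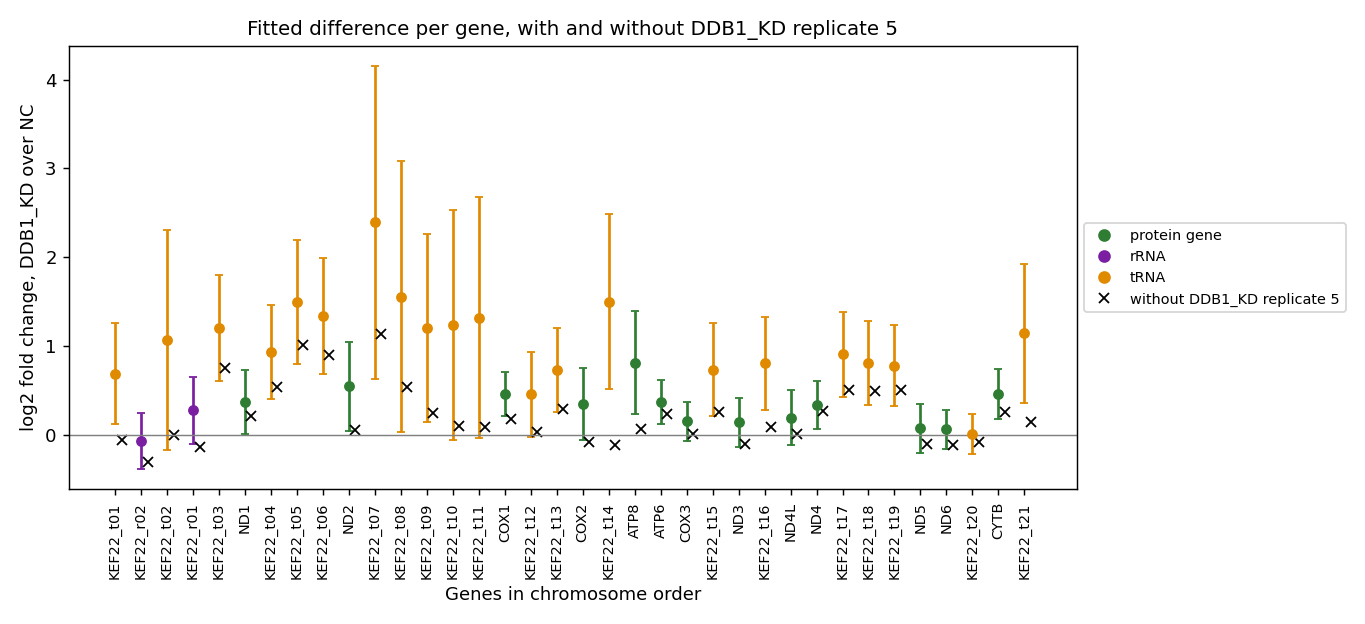
Log2 fold change of DDB1_KD over NC from edgeR (y axis; circles with bars of 1 SE) for the 36 tested genes in chromosome order, with crosses for the fit without DDB1_KD replicate 5. Of the circles 35 of 36 lie above 0, and of the crosses 27 of 36.

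The nuclear genes that make and mature mitochondrial RNA were read from lists. Of 15 tested genes of mitochondrial transcription and its regulators, 9 had a value above 0 in DDB1_KD and 6 below, with a median log2 fold change of 0.07 (-0.01 without DDB1_KD replicate 5), and 0 passed. The elongation factor TEFM had 57.6 ± 25.4 FPKM in DDB1_KD against 34.3 ± 5.71 FPKM in NC (log2 fold change 0.77, SE 0.32, edgeR adjusted p = 0.977). MTERF1, which binds downstream of the rRNA genes, had 7.25 ± 4.52 and 3.70 ± 0.746 FPKM (0.99, SE 0.39, edgeR adjusted p = 0.977). Both genes overlapped between the groups.

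Of 33 genes for processing, modification and stability of mitochondrial RNA, 16 had values above 0 and 17 below (median -0.01), and 0 passed. ELAC2, the nuclease that trims the 3' ends of tRNAs, had 2.31 ± 0.451 FPKM in DDB1_KD against 3.27 ± 0.630 FPKM in NC (SD over 5 libraries; -0.50, SE 0.25). FASTKD3, of a family that acts on mitochondrial mRNAs, had 8.62 ± 2.51 and 6.16 ± 1.45 FPKM (0.51, SE 0.26). Of 18 genes for replication of mitochondrial DNA and its nucleoid, 9 had values above 0 and 9 below (median 0.02), among them the single-strand binding protein SSBP1 at 0.29 (SE 0.18) and the deoxyguanosine kinase DGUOK at -0.32 (SE 0.23), and 0 passed.

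Protein partners of these gene products are encoded in the nucleus. Of 75 tested nuclear subunits of oxidative phosphorylation, most of which assemble with the 13 proteins above, 60 had values below 0 and 15 above. Their median was -0.13 (-0.06 without DDB1_KD replicate 5), and 0 passed. COX7A2, a small subunit of complex IV, had 3389 ± 372 FPKM in DDB1_KD against 4101 ± 316 FPKM in NC (SD over 5 libraries; -0.27, SE 0.15), and ATP5F1E, of ATP synthase, had 621 ± 138 and 810 ± 170 FPKM (-0.38, SE 0.21). Of 74 proteins of the mitochondrial ribosome, 46 had values below 0 and 28 above (median -0.09, and -0.05 without DDB1_KD replicate 5), and 0 passed. Among them MRPS6 was at -0.51 (SE 0.20) and MRPS31 at 0.50 (SE 0.23). All 10 nuclear genes named here overlapped between the groups. The difference between the mitochondrial and the nuclear set was not tested.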

How the data were processed

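RNA of 10 pig morula libraries, 5 DDB1_KD and 5 NC, was sequenced in pairs, per the labels' protocols, and groups and replicate numbers come from the sample titles. The deposited tables hold FPKM values and estimated counts per gene and isoform, per the file headers. Whole numbers fill the deposited count columns, and 100% of isoform counts above 0 equal FPKM times length times 1 constant per library, within 2 counts plus 0.5%. They may therefore derive from coverage, and their sampling error may not be that of read counts. The deposited FPKM is 0.0001 where the count is 0. Per the submitters' processing notes the build was susScr11 and the tools StringTie, HISAT2, fastp, edgeR, ChIPseeker and HOMER, with no version or role given. Limits drawn from a count of 0 cover counting error only.

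Genes with a mean FPKM of at least 1 were tested with edgeR 4.0.16 (TMM scaling, glmQLFit and glmQLFTest, group alone) in R 4.3.3 on the whole table. Log2 fold changes carry edgeR's small prior count, and the SE is the unshrunken coefficient over the root of F. Adjusted p-values are Benjamini-Hochberg over all genes tested, with 0.05 as threshold. DESeq2 1.42.0 and limma 3.58.1 (pseudocount 1) were run as alternatives, beside other scalings, filters, the replicate number as a block and each library left out. Fits were tested on simulated independent counts, whose sampling error may differ from that of the deposited counts. Symbols came from the table, Ensembl names and RefSeq (Sscrofa11.1), and RefSeq positions gave gene types on the same assembly. The correlation used 100000 resamples. Every mitochondrial protein and rRNA gene was named, of the tRNA genes the 5 with the highest mean FPKM, and of each nuclear list the 2 tested genes with the smallest p. Other tRNA genes were named after their values were seen. The genes and lists were chosen with earlier results of these data known. Python 3.11.15, pandas 2.3.3, scipy 1.17.1 and matplotlib 3.10.9 were used.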

Additional observations from a re-analysis of the deposited data

Results flagged for a closer look

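In 104 sets of 5 libraries, 10 held a library whose gap to the nearest other exceeded 0.71 of the range, Dixon's limit at 95%. Chance flags about 1 set in 20 where sets are independent and normally distributed. The sets here share libraries and precursors, so their flags are not independent and their number cannot be set against that rate. Of these 10, 5 were DDB1_KD replicate 5: COX1 at 27539 FPKM (next 15058), COX2 at 34330 (next 17095), KEF22_t14 at 11441 (next 2912), ND3 at 7678 (next 4705) and ND6 at 6072 (next 4400). NC replicate 4 stood apart for KEF22_t21 at 378 FPKM (next 140) and for the share of ND4L in protein gene counts at 6.02% (next 4.84%). NC replicate 3 did so for KEF22_t04 at 80.4 FPKM (next 47.2). The share of ND5 was set apart in DDB1_KD replicate 4 at 6.41% (next 4.38%) and in NC replicate 5 at 7.57% (next 4.89%).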

How the results depend on the processing

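No member passed an adjusted p of 0.05 under any of the alternatives run (lowest adjusted p 0.469). An unadjusted p under 0.05 was reached by 8 members without DDB1_KD replicate 1, 8 without DDB1_KD replicate 4 and 3 without NC replicate 4, where 402, 888 and 253 of all 8476 genes reached it, and by 0 in the other fits that left out 1 library. In edgeR on all libraries 2 members (KEF22_t05 and KEF22_t06) reached it with no filter, against 5.54% of genes. With DESeq2 size factors 1 member (KEF22_t05) did, against 3.04%. Over all genes 0 passed in the fit reported and 2 with DESeq2, and 0 in every fit that left out 1 library. The labels do not say whether equal replicate numbers pair libraries. Same-numbered deviations correlated at -0.142 to 0.354, and the same-numbered NC library was the best match for replicate 3 alone (0.354). With the replicate number as a block 0 genes passed, 34 of 36 members were above 0 and their median was 0.45, against 0.73 without the block. That median ran from 0.39 with limma on log2(FPKM + 0.1) to 0.76 with DESeq2 size factors, and with 1 library left out from 0.13 (DDB1_KD replicate 5) to 0.97 (DDB1_KD replicate 1). Of 756 single-gene values under alternatives 26 changed sign, 19 of them with 1 library left out. The others were KEF22_t02 (-0.085 and -0.10 with limma at pseudocounts 1 and 0.1, -0.53 with voom weights, -0.28 with the replicate block), KEF22_t07 (-0.12 with limma at 0.1, -0.19 with voom weights) and KEF22_t08 (-0.067 with voom weights). Median FPKM in DDB1_KD and NC was 27.4 and 57.5 for KEF22_t02, 0.372 and 1.54 for KEF22_t07, and 0.692 and 0.694 for KEF22_t08. The cause of these sign changes was not tested. With 1 library left out KEF22_r02 ran from -0.30 to 0.17, KEF22_r01 from -0.13 to 0.56, KEF22_t01 from -0.056 to 0.91, COX2 from -0.081 to 0.68, KEF22_t14 from -0.11 to 2.28, ND3 from -0.10 to 0.31, ND5 from -0.10 to 0.23, ND6 from -0.11 to 0.15 and KEF22_t20 from -0.080 to 0.12. As shares of summed FPKM, differences moved to 1.30 percentage points for tRNA genes, 1.02 for ATP8, -0.38 for ND3 and -0.94 for ND4L, since FPKM weights short genes more. The mitochondrial share differed by 5.77 points on summed FPKM, and by 1.26 to 4.56 points when 1 library was left out. The spread without DDB1_KD replicate 5 (23 of 37 genes) was computed after seeing the data.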
